A study of Homo sapiens with 8 samples.

Results

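The genes described here are the members of the cell death machinery in 3 connected groups: the BCL2 family, the caspases with their activators and inhibitors, and the death receptors with their adaptors. They were 45 genes chosen by name from the symbol column of the count table, and every one matched exactly 1 of its 30434 rows. SKBR3 is an established human breast cancer cell line with amplified ERBB2 (HER2), and RNA was sequenced from 4 control libraries, labelled as the wild-type (WT) genotype, and 4 libraries of a derivative line with reduced FOXA1, a pioneer transcription factor of luminal breast cells. The knockdown line was stable and had been made with lentiviruses carrying short hairpin RNAs against FOXA1, while both groups grew in DMEM with serum. The labels do not say whether the controls carried a vector, whether the knockdown line was 1 clone or a pool, or whether the libraries of a group came from separate cultures, so p-values measure the spread between these libraries only.

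Cells undergo apoptosis through a mitochondrial route or through receptors at the cell surface. In the mitochondrial route, BH3-only proteins neutralise the pro-survival BCL2 proteins or engage BAX and BAK1, which open the outer mitochondrial membrane, and released cytochrome c assembles APAF1 and caspase-9 into the apoptosome. In the receptor route, ligands such as TRAIL bring FADD and caspase-8 together, with CFLAR as a brake, and where caspase-8 is held back RIPK1, RIPK3 and MLKL can carry out necroptosis, a lytic form of death. In ERBB2-driven breast cells the BH3-only protein BIM, encoded by BCL2L11, is a known mediator of death when the receptor is inhibited.

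Library totals ran from 19087878 to 23786684 counts, so that 3 counts, used as the floor for an undetected gene, corresponded to 0.123 to 0.153 CPM (counts scaled to a common library total). FOXA1 itself had between 4071 and 4397 counts in control libraries and between 83 and 92 in knockdown libraries (log2 fold change -5.60 with an SE of 0.063; edgeR adjusted p = 3.19e-30). All 6 luminal epithelial markers checked were present in every library, with a summed level of 16300 to 18200 CPM in control and 11000 to 11800 CPM in knockdown. Within that sum ERBB2 fell from 7310 CPM ± 365 to 1340 CPM ± 52.9 (SD, n = 4 per group; log2 fold change -2.45; edgeR adjusted p = 8.34e-26) and KRT19 also fell (-1.87), while KRT8, KRT18 and EPCAM rose (0.31, 0.58 and 0.33). Some markers of other cell types moved between the groups. The 4 fibroblast markers summed to 5.13 to 6.93 CPM in control and 10.8 to 11.9 CPM in knockdown, with DCN at 0 or 1 count in every library. Within that sum COL3A1 had 0 or 1 count in control libraries and 90 to 104 in knockdown libraries. PDGFRB rose from 0.41 to 2.83 CPM (log2 fold change 2.78), while COL1A1 fell from 5.38 to 4.33 CPM (-0.31). The 3 basal markers summed to 1.14 to 1.42 CPM and 8.71 to 10.1 CPM, and most of that rise was in TP63. The leukocyte markers found summed to 4.4 to 5.65 CPM in control and 0.139 to 1.11 CPM in knockdown, nearly all CD68, with PTPRC at 3 counts or fewer. The 3 endothelial markers summed to 20.7 to 22.1 CPM and 19.7 to 22.4 CPM, a sum in which VWF fell from 5.22 to 0.845 CPM (log2 fold change -2.62) and CDH5 rose from 16.1 to 20.1 CPM (0.32), with PECAM1 at 6 counts or fewer. The part of these shifts in the results below was not tested.

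Of the 45 members, 41 had enough counts to be tested. The test called 22 lower and 14 higher in knockdown at an adjusted p under 0.05, and 5 did not pass. These shares, 53.7% and 34.1% of the tested members, stand beside 37.7% and 39.4% of all 16430 tested genes, and 77.1% of all genes were called in one direction or the other. A change of at least 2-fold was called for 14 members, 8 lower and 6 higher (34.1% of the tested members), where 28.3% of all tested genes passed the same rule, 13.4% lower and 14.9% higher. The median absolute log2 fold change was 0.51 for the members and 0.51 for all tested genes, and the signed medians were -0.13 and 0.02. The ranges of the groups in CPM were separate for 33 tested members and for 72.0% of all tested genes. RIPK3, HRK and PMAIP1 reached the filter's minimum of 0.442 CPM in 1 group only and CASP10 in 1 control library, so that these could be tested only because they differed. BIK and MLKL reached it in all 4 control libraries but in only 2 and 3 knockdown libraries.

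**Figure D1:**
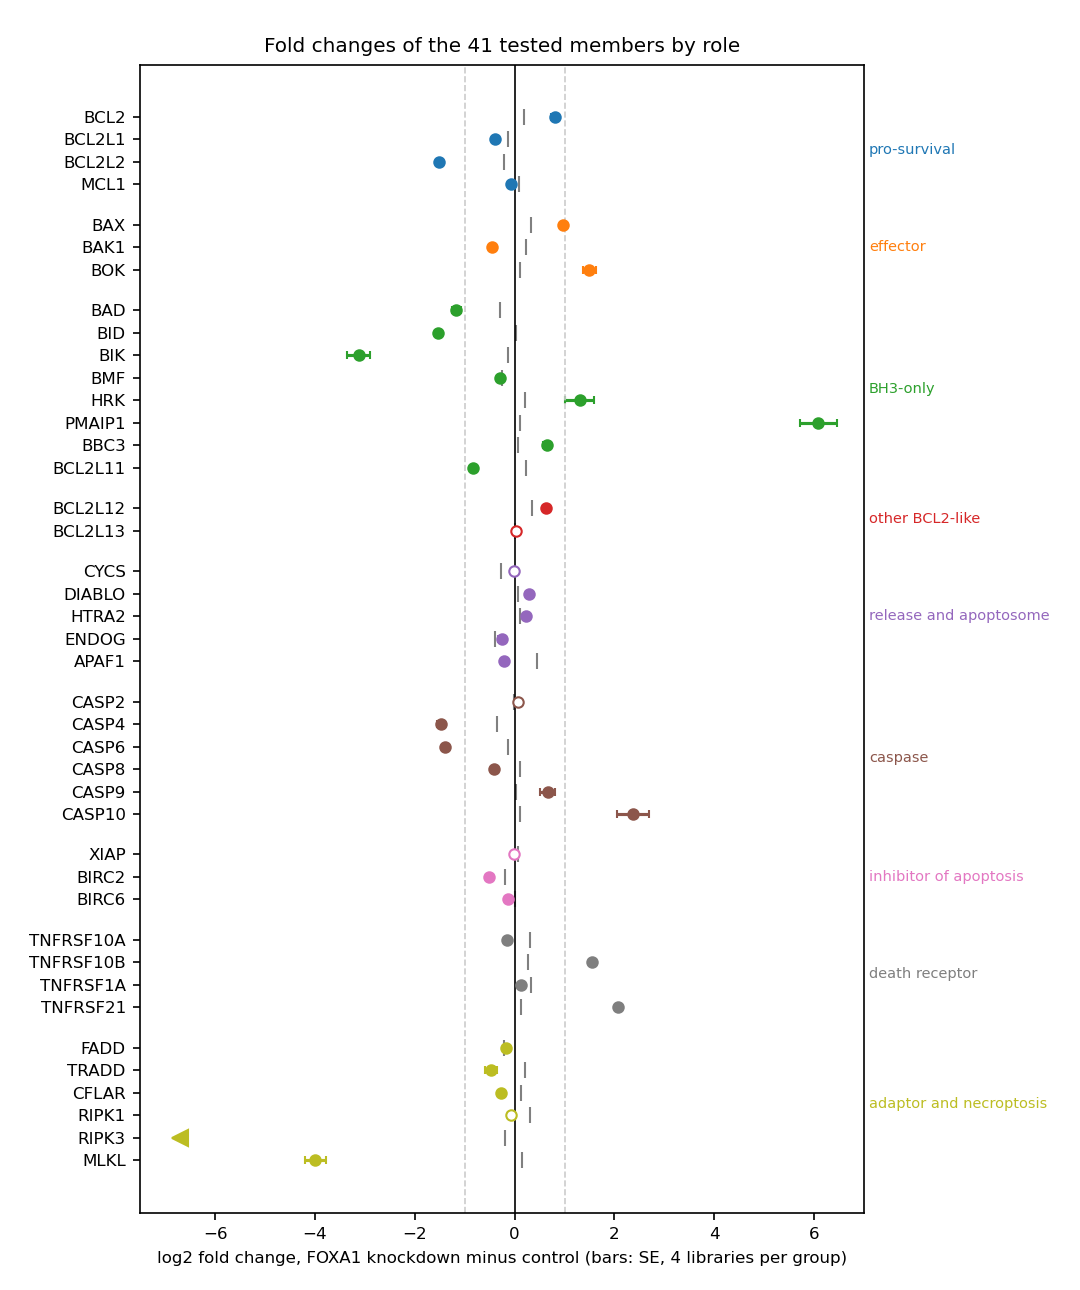
Log2 fold change (x axis, FOXA1 knockdown minus control) of the 41 tested members, grouped by role, with bars for the SE over 4 libraries per group, filled points for genes past an adjusted p of 0.05, open points for the rest and grey ticks for the median of the 50 nearest tested genes on the chromosome. The triangle for RIPK3 is drawn at its bound of -6.71, and PMAIP1 lies farthest to the right at 6.08; dashed lines mark 2-fold changes.

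Necroptosis genes held the largest fall. RIPK3, the kinase that passes the death signal on to MLKL, had 353, 358, 364 and 332 counts in controls 1 to 4, against 2, 0, 0 and 0 counts in knockdowns 1 to 4. Every control library was well above the floor and every knockdown library was below it. In bulk RNA, a lower level in every cell and fewer expressing cells cannot be told apart, here and for the genes below. From 16.0 CPM ± 1.24 (SD, n = 4), RIPK3 was at least 105-fold lower in knockdown (edgeR adjusted p = 3.08e-21). The gene lies on chromosome 14, 24336021 to 24340045, minus strand (GENCODE 29 on GRCh38, as for all positions of genes here). An overlapping gene model on the same strand shares 358 bp with RIPK3 and averaged 0.4 counts per library.

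MLKL, the pseudokinase that disrupts the plasma membrane at the end of necroptosis, fell as well. It had 210, 215, 203 and 213 counts in controls 1 to 4, against 10, 19, 9 and 15 in knockdowns 1 to 4, with no overlap of the groups. Its level went from 9.55 CPM ± 0.255 to 0.589 CPM ± 0.174 (SD, n = 4 per group), or 6.17% of control, with a log2 fold change of -3.99 (SE 0.208, edgeR adjusted p = 2.87e-18). RIPK1, the kinase upstream of RIPK3 that also signals from TNF receptors to survival pathways, went from 20.5 CPM ± 0.52 to 19.5 CPM ± 1.40 (SD, n = 4 per group), and its groups overlapped (log2 fold change -0.07 with an SE of 0.0544; edgeR adjusted p = 0.297). With the median shift of its 50 nearest genes taken out, RIPK1 was past the threshold (log2 fold change -0.38; edgeR adjusted p = 3.43e-06, over the alternatives up to 0.882). RIPK3 and MLKL lie on different chromosomes, and the 50 tested genes nearest to each had median log2 fold changes of -0.20 and 0.15.

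The promoter window of MLKL, the 250 bases before its RefSeq start on the gene's strand (GRCh38.p14, chr16:74700863-74701112, minus strand), is given because MLKL showed the largest fall among members with a window in the table. CpG dinucleotides are in capitals. It held 5 CpGs at 52% G and C, below the median of 11 over all 35116 windows of this length.
MLKL: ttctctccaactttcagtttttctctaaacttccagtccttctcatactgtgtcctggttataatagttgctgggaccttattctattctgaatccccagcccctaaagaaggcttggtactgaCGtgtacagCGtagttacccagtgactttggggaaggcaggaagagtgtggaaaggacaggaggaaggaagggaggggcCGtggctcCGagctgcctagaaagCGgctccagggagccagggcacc
No entry for RIPK3 was found in the promoter table.

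The adaptors of the receptor route moved little. FADD, which links death receptors to caspase-8, had the highest per-length level of the adaptors and necroptosis genes, 20.6 CPM per kb of exon ± 0.542 in control and 18.4 CPM per kb ± 0.801 in knockdown (SD, n = 4 per group). Its counts were 841, 804, 815 and 882 in controls 1 to 4, against 800, 776, 689 and 750 in knockdowns 1 to 4. The FADD groups did not overlap once scaled (log2 fold change -0.16 with an SE of 0.0373; edgeR adjusted p = 0.00371), but the change became 0.047 with the median shift of the 50 nearest tested genes taken out, and the call was lost with upper-quartile scaling or library size only. CFLAR, which encodes the caspase-8 brake c-FLIP, fell from 65.2 CPM ± 1.41 to 53.6 CPM ± 1.45 (SD, n = 4 per group; log2 fold change -0.28). TRADD, the adaptor of TNF receptor 1, fell by 0.47 on the log2 scale (SE 0.119). In all, 5 of the 6 adaptors and necroptosis genes were called lower, RIPK3 tested only through its control level, and none was higher. Of all tested genes, 37.7% were called lower and 39.4% higher.

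Of the 4 death receptors tested, 3 were called higher and 1 lower, beside 39.4% and 37.7% of all tested genes. TNFRSF21 (death receptor 6) had 457, 448, 427 and 498 counts in controls 1 to 4, against 1983, 2178, 1697 and 1963 in knockdowns 1 to 4. Each knockdown library was far above every control library. The level rose from 20.8 CPM ± 0.557 to 87.7 CPM ± 2.91 (SD, n = 4 per group), 4.23-fold, with a log2 fold change of 2.08 (SE 0.0307, edgeR adjusted p = 6.97e-23). TNFRSF21 lies on chromosome 6, 47231532 to 47309905, minus strand, among neighbours with a median log2 fold change of 0.13.

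The TRAIL receptors diverged from each other. TNFRSF10B, which encodes the TRAIL receptor DR5, had 521, 559, 525 and 485 counts in controls 1 to 4, against 1583, 1768, 1303 and 1567 in knockdowns 1 to 4, again without overlap. It rose 2.93-fold, from 23.8 CPM ± 2.01 to 69.6 CPM ± 3.28 (SD, n = 4 per group; log2 fold change 1.55 with an SE of 0.0718; edgeR adjusted p = 1.62e-18). TNFRSF10A, the other TRAIL receptor with a death domain (DR4), went from 30.7 CPM ± 1.03 to 27.4 CPM ± 1.53 (SD, n = 4 per group; log2 fold change -0.16 with an SE of 0.047; edgeR adjusted p = 0.00786). With the neighbours' shift taken out the value was -0.47. The call was lost in 3 of 18 alternatives, among them leaving out knockdown replicate 1, where the adjusted p was 0.0531 (range over the alternatives 1.67e-08 to 0.19). TNFRSF10D, a decoy receptor for TRAIL, never exceeded 2 counts in controls and had 0 in each knockdown library. RHOBTB2 overlaps TNFRSF10B by 67 bp on the opposite strand and had a log2 fold change of 1.65, so reads in that stretch cannot be assigned with certainty where strand was not used.

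TNFRSF1A, the main receptor for TNF, had the highest per-length level of the death receptors in control, 15.8 CPM per kb ± 0.238, and stood at 17.3 CPM per kb ± 0.688 in knockdown (SD, n = 4 per group), where TNFRSF21 was higher at 24.4 CPM per kb. Its counts were 1377, 1367, 1353 and 1480 in controls 1 to 4, against 1638, 1726, 1284 and 1548 in knockdowns 1 to 4, a log2 fold change of 0.13 (SE 0.0311, edgeR adjusted p = 0.00584) that turned to -0.19 with the neighbours' shift taken out. FAS had 6, 4, 5 and 6 counts in controls 1 to 4, against 0 in every knockdown library, and stayed below the filter. With 0 counts, a level of 0.153 CPM remains possible in knockdown replicate 3, the library with the fewest counts. Summed over the 6 receptor genes, the per-length level was 36.7 CPM per kb ± 0.573 in control and 64.5 CPM per kb ± 2.14 in knockdown (SD, n = 4 per group). Within that sum TNFRSF21 went from 15.8% ± 0.628 to 37.8% ± 0.450, and TNFRSF1A from 43.1% ± 0.775 to 26.8% ± 0.745 (SD, n = 4 per group).

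The promoter window of TNFRSF21 (250 bases before the RefSeq start on the gene's strand, GRCh38.p14, chr6:47309906-47310155, minus strand) is shown as that of the receptor with the largest rise, with its 20 CpGs in capitals.
TNFRSF21: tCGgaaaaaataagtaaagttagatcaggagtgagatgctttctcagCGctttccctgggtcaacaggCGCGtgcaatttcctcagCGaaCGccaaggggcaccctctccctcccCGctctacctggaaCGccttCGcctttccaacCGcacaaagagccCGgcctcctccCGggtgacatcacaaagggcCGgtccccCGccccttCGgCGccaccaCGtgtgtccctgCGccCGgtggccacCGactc

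The BH3-only genes, which encode the sensors that start the mitochondrial route, included the largest rise and several falls. All 8 were called, 5 lower and 3 higher, and none had overlapping groups. Over all tested genes, 77.1% were called and 72.0% had separate groups. HRK and PMAIP1 reached the filter's minimum in knockdown libraries only. PMAIP1 (NOXA), which binds MCL1 and promotes its loss, had 5, 2, 3 and 8 counts in controls 1 to 4, against 361, 331, 287 and 285 in knockdowns 1 to 4. The gene was close to the floor in every control library and well expressed in every knockdown library. Its level went from 0.202 CPM ± 0.111 to 14.2 CPM ± 0.986 (SD, n = 4 per group), a log2 fold change of 6.08 (SE 0.37, edgeR adjusted p = 1.12e-20). PMAIP1 lies on chromosome 18, 59899948 to 59904306, plus strand, and its neighbours had a median log2 fold change of 0.11.

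The promoter window of PMAIP1 (250 bases before the RefSeq start, GRCh38.p14, chr18:59899746-59899995, plus strand) is given because it belongs to the member that rose most. It held 36 CpGs, in capitals, at 72.8% G and C, against a median of 11 CpGs over all windows and 20 over the 64 windows of the 35 members that have one.
PMAIP1: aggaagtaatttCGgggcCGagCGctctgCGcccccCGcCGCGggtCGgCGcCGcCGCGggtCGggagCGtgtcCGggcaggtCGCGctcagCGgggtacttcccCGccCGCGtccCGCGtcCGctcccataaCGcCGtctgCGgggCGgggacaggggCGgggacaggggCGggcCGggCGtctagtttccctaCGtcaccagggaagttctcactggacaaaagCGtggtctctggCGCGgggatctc

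BIK, a BH3-only protein of the endoplasmic reticulum and mitochondria, showed the largest fall of this role. It had 93, 72, 104 and 89 counts in controls 1 to 4, against 11, 8, 8 and 14 in knockdowns 1 to 4, so that every knockdown library was far below every control library. BIK thus averaged 4.08 CPM ± 0.704 among controls against 0.463 CPM ± 0.136 (SD, n = 4 per group; log2 fold change -3.13 with an SE of 0.234; edgeR adjusted p = 8.24e-13).

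BID, which caspase-8 cleaves to connect the receptor and mitochondrial routes, had 693, 727, 671 and 736 counts in controls 1 to 4, against 251, 259, 207 and 272 in knockdowns 1 to 4. It fell to 34.6% of control, from 32.1 CPM ± 0.619 to 11.1 CPM ± 0.990 (SD, n = 4 per group; log2 fold change -1.53, SE 0.0632). BAD, which growth factor signalling inactivates by phosphorylation, had the highest per-length level of the role in each group, 15.4 CPM per kb ± 1.21 in control and 6.84 CPM per kb ± 0.653 in knockdown (SD, n = 4 per group). BAD had 566, 533, 613 and 596 counts in controls 1 to 4, against 272, 253, 257 and 253 in knockdowns 1 to 4, a log2 fold change of -1.17 (SE 0.0885). With the neighbours' shift taken out the value for BAD was -0.87, short of 2-fold. For both genes the groups were widely separated, with an adjusted p of 1.92e-17 for BID and of 1.23e-13 for BAD by edgeR. GPR137 overlaps BAD by 404 bp on the opposite strand and had a log2 fold change of -0.32.

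BCL2L11 (BIM) fell from 44.7 CPM ± 1.45 to 25.1 CPM ± 0.320 (SD, n = 4 per group), 56.1% of control, with a log2 fold change of -0.83 (SE 0.0252, edgeR adjusted p = 2.39e-14). It lay between 43.4 and 46.1 CPM in control libraries and between 24.8 and 25.5 CPM in knockdown libraries. With the neighbours' shift taken out the log2 fold change of BCL2L11 was -1.06, past 2-fold. The noncoding gene MIR4435-2HG overlaps BCL2L11 by 727 bp on the opposite strand and had a log2 fold change of -2.21, so the counts of BCL2L11 are uncertain in that stretch. BMF, a BH3-only protein released from the cytoskeleton on detachment, fell by 0.29 on the log2 scale, and once the shift of its neighbours was taken out the change was -0.02 and not past the threshold (edgeR adjusted p = 0.714; range over the alternatives 3.32e-05 to 0.714).

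The other rises of the role were smaller. BBC3 (PUMA), a target of p53, rose from 5.64 CPM ± 0.532 to 8.82 CPM ± 0.540 (SD, n = 4 per group; log2 fold change 0.65). HRK, best known from neurons, had 4, 8, 8 and 8 counts in controls 1 to 4, against 22, 24, 12 and 13 in knockdowns 1 to 4 (log2 fold change 1.30 with an SE of 0.292; edgeR adjusted p = 0.000624). Both were higher in 4 of 4 knockdown libraries, HRK at a level near the floor.

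On the per-length scale both the sum of the BH3-only genes and their make-up changed. The sum of the 8 was 39.3 CPM per kb ± 1.97 in control and 25.9 CPM per kb ± 0.952 in knockdown (SD, n = 4 per group). BAD held 39.1% ± 1.19 of it in control and 26.3% ± 1.78 in knockdown, BID 18.4% ± 1.14 and 9.64% ± 0.879, and BIK 10.8% ± 1.35 and 1.87% ± 0.525 (SD, n = 4 per group). PMAIP1 went from 0.231% ± 0.131 to 24.5% ± 1.37 (SD, n = 4 per group), close to the share of BAD.

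**Figure D2:**
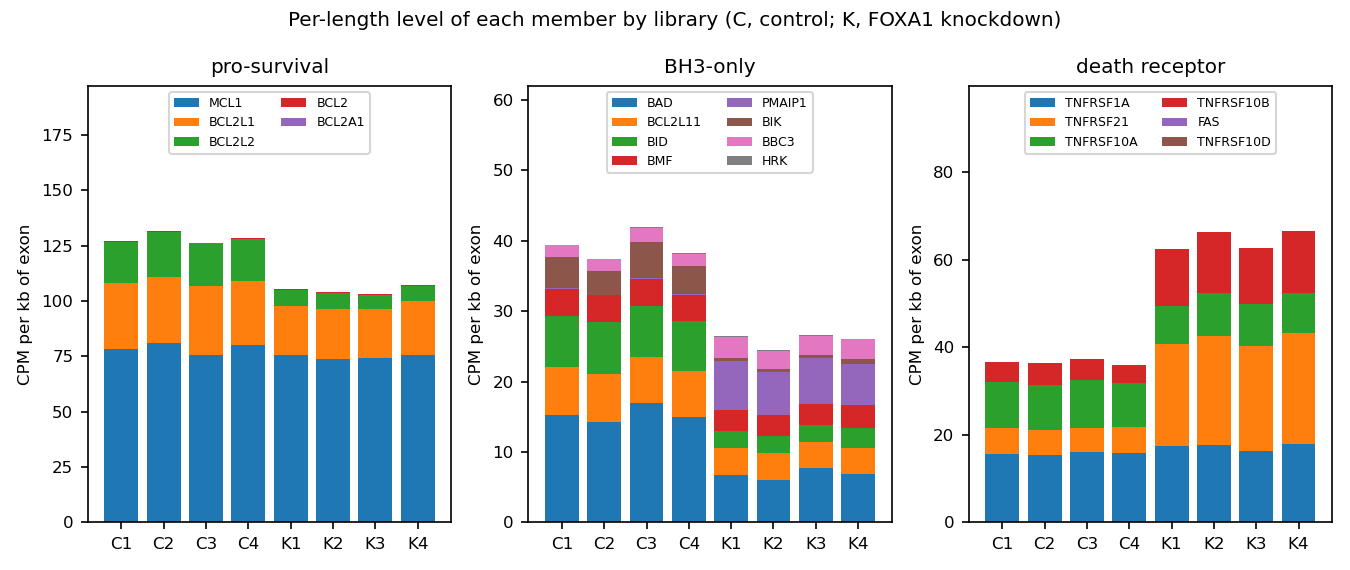
Stacked bars of the per-length level (y axis, CPM per kb of GENCODE 29 exon) of the pro-survival, BH3-only and death receptor genes in each library (x axis, C1 to C4 control and K1 to K4 FOXA1 knockdown). PMAIP1 is visible only in the knockdown bars of the BH3-only panel, and the death receptor bars rise from a mean of 36.7 to 64.5 CPM per kb, with the TNFRSF21 and TNFRSF10B segments widening.

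The window upstream of BCL2L11 (250 bases before the RefSeq start, GRCh38.p14, chr2:111120664-111120913, plus strand) is shown because it was the only one among the members to hold TGTTTAC, the core of the forkhead motif that FOXA1 binds, in capitals here as its reverse complement. Searched on both strands, TGTTTAC was in 1 of the 64 member windows and in 2.98% of all 35116 windows. The related TGTTTGC was in 5 member windows, those of BCL2A1, BCL2L13, BIRC2, BMF and FADD, and in 3.23% of all windows. A match of letters is a description of the window and not a binding site.
BCL2L11: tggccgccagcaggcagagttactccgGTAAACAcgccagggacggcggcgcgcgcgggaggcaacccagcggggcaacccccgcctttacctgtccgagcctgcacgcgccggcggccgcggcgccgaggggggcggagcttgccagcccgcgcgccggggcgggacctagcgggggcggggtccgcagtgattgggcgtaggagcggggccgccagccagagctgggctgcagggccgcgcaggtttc

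Among the pro-survival genes, whose proteins hold BAX, BAK1 and the BH3-only proteins in check, 3 were lower and 1 was higher. The shares over all tested genes were 37.7% lower and 39.4% higher. BCL2L2 (BCL-W) had 1685, 1851, 1706 and 1873 counts in controls 1 to 4, against 711, 706, 509 and 608 in knockdowns 1 to 4. The groups stood far apart, at 80.7 CPM ± 2.81 and 28.3 CPM ± 1.80 (SD, n = 4 per group; log2 fold change -1.51 with an SE of 0.0529; edgeR adjusted p = 1.83e-19). The readthrough gene BCL2L2-PABPN1 shares 813 bp with BCL2L2 on the same strand, so the split of reads between them is uncertain. BCL2L2-PABPN1 had 195, 128, 241 and 171 counts in controls 1 to 4, against 199, 272, 236 and 239 in knockdowns 1 to 4. Adding the counts of both genes, an alternative added once the data had been seen, gave 89.1 CPM ± 2.70 for controls against 39.0 CPM ± 0.892 (SD, n = 4 per group), a log2 difference of -1.19.

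MCL1, which cells need for survival and turn over quickly, was the pro-survival gene with the highest per-length level, 78.8 CPM per kb ± 2.47 in control and 74.9 CPM per kb ± 0.975 in knockdown (SD, n = 4 per group). Its counts were 7490, 7793, 6939 and 8136 in controls 1 to 4, against 7788, 7891, 6359 and 7150 in knockdowns 1 to 4. The scaled groups overlapped, and the log2 fold change of -0.07 (SE 0.0247, edgeR adjusted p = 0.0446) was past the threshold by a narrow margin. In 12 of 18 alternatives the call of MCL1 was lost or its sign turned, including 7 of the 8 that left out 1 library, with adjusted p between 5.43e-05 and 0.77 over the alternatives.

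BCL2L1 (BCL-XL) fell from 99.2 CPM ± 3.72 to 75.4 CPM ± 3.28 (SD, n = 4 per group; log2 fold change -0.40, SE 0.0411), lower in 4 of 4 knockdown libraries. BCL2, the founder of the family and a gene of hormone receptor-positive breast cells, was low per length in both groups, and rose from 3.27 CPM ± 0.0757 to 5.71 CPM ± 0.552 (SD, n = 4 per group; log2 fold change 0.81 with an SE of 0.0696; edgeR adjusted p = 5.22e-07). BCL2A1, typical of blood cells, had at most 1 count in any library. On the per-length scale the sum of the 5 genes was 128 CPM per kb ± 2.23 in control and 105 CPM per kb ± 1.71 in knockdown (SD, n = 4 per group). MCL1 made up 61.4% ± 1.22 and 71.4% ± 0.576 of it, BCL2L1 23.3% ± 1.07 and 21.7% ± 0.728, and BCL2L2 15% ± 0.365 and 6.44% ± 0.378 (SD, n = 4 per group).

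The effectors that open the mitochondrial membrane diverged. BAK1 had the highest per-length level of them, 34.0 CPM per kb ± 1.19 in control and 24.8 CPM per kb ± 0.255 in knockdown (SD, n = 4 per group). With 1607, 1659, 1664 and 1701 counts in controls 1 to 4, against 1299, 1352, 1074 and 1170 in knockdowns 1 to 4, BAK1 fell by 0.46 on the log2 scale (SE 0.026, edgeR adjusted p = 2.38e-10). BAX rose 1.97-fold, from 18.8 CPM ± 0.832 to 37.1 CPM ± 2.06 (SD, n = 4 per group; log2 fold change 0.98 with an SE of 0.051; edgeR adjusted p = 2.25e-14), just short of 2-fold, and by 0.65 on the log2 scale with the neighbours' shift taken out. The ratio of BAX to BAK1 counts lay between 0.243 and 0.265 in control libraries and between 0.65 and 0.728 in knockdown libraries, a log2 difference of 1.43 (SE 0.0484). BOK, a relative linked to the endoplasmic reticulum, had 49, 53, 67 and 58 counts in controls 1 to 4, against 159, 164, 153 and 171 in knockdowns 1 to 4. It rose from 2.58 CPM ± 0.413 to 7.30 CPM ± 0.645 (SD, n = 4 per group; log2 fold change 1.5 with an SE of 0.126; edgeR adjusted p = 3.09e-11), with no overlap.

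Of the remaining BCL2-like genes, BCL2L12 rose from 34.7 CPM ± 2.36 to 53.7 CPM ± 2.91 (SD, n = 4 per group; log2 fold change 0.63, and 0.29 with the neighbours' shift taken out). It had the higher per-length level of the pair, 15.7 CPM per kb in control and 24.2 CPM per kb in knockdown, from 787, 708, 786 and 777 counts in controls 1 to 4, against 1229, 1293, 1015 and 1254 in knockdowns 1 to 4. BCL2L12 overlaps IRF3 by 734 bp on the opposite strand, and IRF3 had a log2 fold change of 0.61, so the assignment of reads in that stretch is uncertain. BCL2L13, a mitophagy receptor, was at 64.7 CPM ± 2.56 and 65.9 CPM ± 2.64 (SD, n = 4 per group), overlapping (edgeR adjusted p = 0.591).

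**Figure D3:**
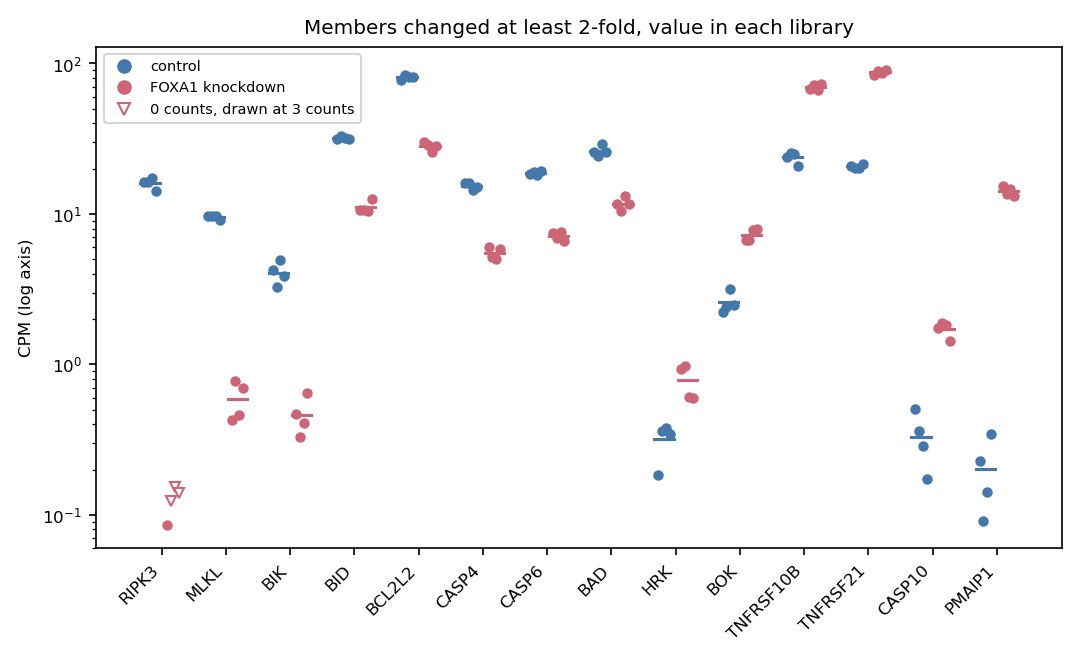
CPM (y axis, log scale) in each library of the 14 members called with a change of at least 2-fold (x axis, ordered from the largest fall to the largest rise), with control in blue, FOXA1 knockdown in red, lines at the group means (none for RIPK3 in knockdown) and open triangles for libraries with 0 counts, drawn at 3 counts. The groups are separate for every gene shown, from RIPK3 with 2, 0, 0 and 0 knockdown counts to PMAIP1 with a knockdown mean of 14.2 CPM.

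Of the factors released from mitochondria and the apoptosome, 2 were called higher and 2 lower, all by less than 2-fold. Over all tested genes, 39.4% were called higher and 37.7% lower, and 28.3% were called with at least a 2-fold change. CYCS, which encodes cytochrome c, had the highest per-length level of all members, 122 CPM per kb ± 6.16 in control and 121 CPM per kb ± 6.38 in knockdown (SD, n = 4 per group). Its counts were 12111, 12075, 10697 and 13300 in controls 1 to 4, against 13598, 12771, 10781 and 11131 in knockdowns 1 to 4, and the groups overlapped (log2 fold change -0.01 with an SE of 0.0526; edgeR adjusted p = 0.786). With the neighbours' shift taken out CYCS was past the threshold as higher (0.26; edgeR adjusted p = 3.88e-06, over the alternatives up to 0.969). CYCS has many processed pseudogenes, which leaves its counts uncertain. DIABLO (log2 fold change 0.29, SE 0.0605) and HTRA2 (0.23, SE 0.0388), both of which antagonise the inhibitors of apoptosis, rose, while ENDOG, a mitochondrial nuclease, and APAF1, the scaffold of the apoptosome, had log2 fold changes of -0.25 (SE 0.0774) and -0.21 (SE 0.042) and were called lower. With the same shift taken out ENDOG turned to 0.14, HTRA2 was at 0.12 and APAF1 at -0.65, and the call of APAF1 was lost with upper-quartile scaling (edgeR adjusted p = 0.0523) or library size only (0.102, range over the alternatives 5.95e-09 to 0.102). On the opposite strand HTRA2 overlaps LOXL3 by 625 bp and AUP1 by 483 bp (log2 fold changes of 1.73 and -0.06). DIABLO overlaps B3GNT4 by 970 bp on the opposite strand (-0.87). Reads in these stretches cannot be assigned with certainty where strand was not used.

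Caspases, the proteases of the pathway, were split. CASP4, a caspase that senses bacterial lipopolysaccharide and drives pyroptosis, had 352, 352, 303 and 351 counts in controls 1 to 4, against 141, 127, 98 and 126 in knockdowns 1 to 4. It fell to 35.7% of control, from 15.4 CPM ± 0.807 to 5.50 CPM ± 0.483 (SD, n = 4 per group; log2 fold change -1.48 with an SE of 0.0737; edgeR adjusted p = 1.52e-14). CASP6, an executioner caspase and the caspase with the highest per-length level in control, though below CASP2 (6.41 CPM per kb) and CASP8 (4.62 CPM per kb) in knockdown (9.64 CPM per kb ± 0.258 in control and 3.68 CPM per kb ± 0.244 in knockdown, SD, n = 4 per group), had 405, 417, 382 and 448 counts in controls 1 to 4, against 176, 170, 149 and 142 in knockdowns 1 to 4. The CASP6 groups were well apart (log2 fold change -1.39 with an SE of 0.0519; edgeR adjusted p = 2.98e-15). MCUB overlaps CASP6 by 105 bp on the opposite strand and had a log2 fold change of -2.58.

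CASP10, a close relative of CASP8 that also joins death receptor complexes, rose from a low level. It had 11, 8, 6 and 4 counts in controls 1 to 4, against 41, 46, 36 and 31 in knockdowns 1 to 4 (log2 fold change 2.37 with an SE of 0.316; edgeR adjusted p = 1.56e-08), without overlap. CASP9, the initiator in the apoptosome, rose from 3.13 CPM ± 0.489 to 4.92 CPM ± 0.626 (SD, n = 4 per group; log2 fold change 0.66), and CASP8, the initiator at death receptors, fell from 44.7 CPM ± 1.24 to 33.4 CPM ± 0.853 (SD, n = 4 per group; log2 fold change -0.42). CASP2 was at 48.8 CPM ± 1.03 and 51.4 CPM ± 2.74 (SD, n = 4 per group), overlapping, with an edgeR adjusted p = 0.142. Leaving out knockdown replicate 3 brought CASP2 past the threshold (log2 fold change 0.11, adjusted p of 0.032; range over the alternatives 0.00351 to 0.303). CASP1, the inflammasome caspase, had 7, 21, 11 and 7 counts in controls 1 to 4, against 5, 2, 0 and 0 in knockdowns 1 to 4, below the filter.

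Of the inhibitors of apoptosis, 2 were called lower and none changed 2-fold. The shares of all tested genes were 37.7% called lower and 28.3% called with at least a 2-fold change. XIAP, which blocks caspases directly, was at 64.1 CPM ± 2.75 and 63.7 CPM ± 2.24 (SD, n = 4 per group), with overlapping groups (edgeR adjusted p = 0.89). BIRC2 (cIAP1), a ubiquitin ligase of TNF receptor signalling, fell from 43.0 CPM ± 3.20 to 30.2 CPM ± 1.55 (SD, n = 4 per group; log2 fold change -0.51 with an SE of 0.0669; edgeR adjusted p = 8.24e-09), and fell by 0.31 on the log2 scale with the neighbours' shift taken out. BIRC6, a very large ubiquitin-conjugating protein, had the highest per-length level of the 3, 11.2 CPM per kb ± 0.746 in control and 10.2 CPM per kb ± 0.623 in knockdown (SD, n = 4 per group). Its counts were 4395, 4657, 3804 and 4760 in controls 1 to 4, against 4085, 4853, 3482 and 3929 in knockdowns 1 to 4, with overlap after scaling. The log2 fold change of -0.13 (edgeR adjusted p = 0.0303) was lost in 8 of 18 alternatives, 5 of which left out 1 library (control replicates 2 or 4, or knockdown replicates 1, 3 or 4; adjusted p of 0.0752, 0.0677, 0.103, 0.104 and 0.0751, and over all alternatives 0.000286 to 0.511).

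Several members lie beside each other in the genome, and some of these neighbours moved apart while others moved together. On chromosome 2, within 172 kb, CASP10, which could be tested only through its knockdown level, rose while CFLAR and CASP8 on its sides fell (log2 fold changes of 2.37, -0.28 and -0.42). The ratio of CASP10 to CASP8 counts was between 0.00423 and 0.0116 in control libraries and between 0.0436 and 0.0581 in knockdown libraries, a log2 difference of 2.81 (SE 0.32). On chromosome 8, within 205 kb, the ratio of TNFRSF10B to TNFRSF10A counts went from 0.711 to 0.832 in control to 2.36 to 2.69 in knockdown, a log2 difference of 1.72 (SE 0.0631). On chromosome 22, within 146 kb, BID fell relative to BCL2L13 by 1.56 on the log2 scale (SE 0.0456). BAX and BCL2L12 on chromosome 19, 719 kb from end to end, both rose, and BAX by 0.35 more on the log2 scale (SE 0.0897). These 4 ratios and that of BAX to BAK1 were chosen after the values were seen and are given without a test. CASP4, which fell, and CASP1, which was too low to test, share 92 kb of chromosome 11, where the 50 nearest tested genes had a median log2 fold change of -0.36.

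**Figure D4:**
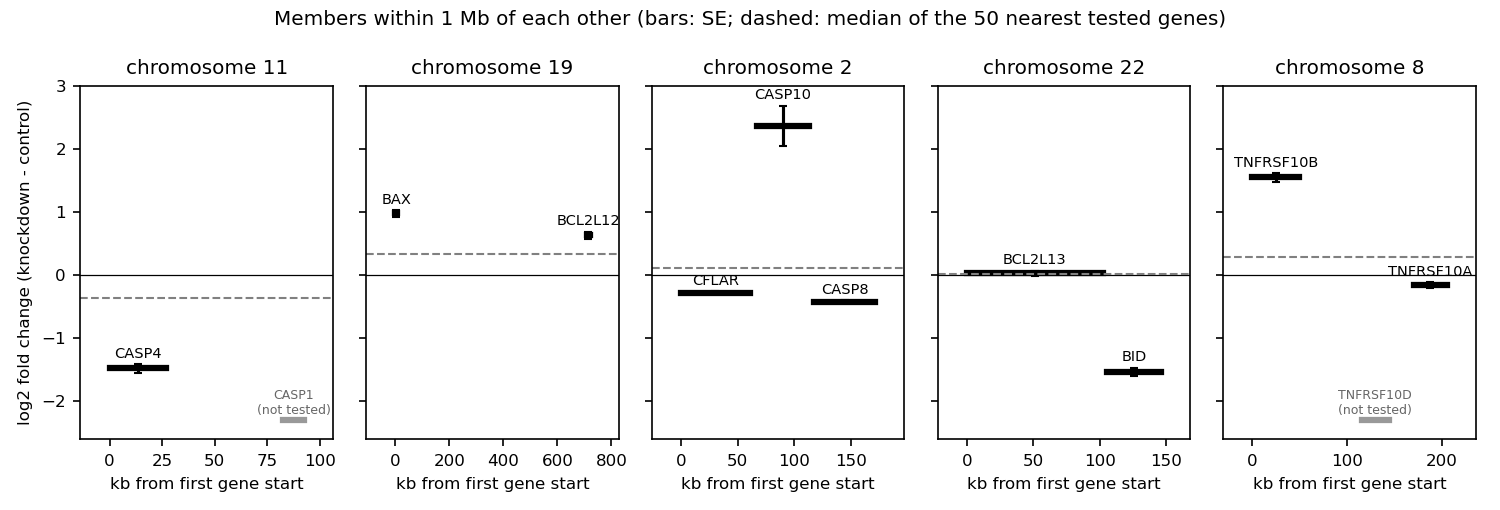
Log2 fold change (y axis, FOXA1 knockdown minus control) of members that lie within 1 Mb of each other, against distance in kb from the start of the first gene (x axis), with thick bars for the genes, thin bars for the SE, a dashed line for the median of the 50 nearest tested genes and grey bars at an arbitrary height for genes not tested. CASP10 stands at 2.37 between CFLAR at -0.28 and CASP8 at -0.42, and TNFRSF10B at 1.55 stands above TNFRSF10A at -0.16.

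Other genes of the pathway also moved in both directions. A list of 38 further apoptosis genes had 33 rows in the table and 29 tested genes, of which 9 were lower and 12 higher, with a median log2 fold change of 0.05. The shares were 31.0% lower and 41.4% higher, beside 37.7% and 39.4% of all tested genes. BIRC5 (survivin), an inhibitor of apoptosis that also acts in mitosis, rose by 0.22 on the log2 scale, and by 0.73 with the neighbours' shift taken out. Among those averaging 50 counts or more, the largest rises were in TNFRSF1B, the second TNF receptor, from 0.283 CPM ± 0.0484 to 6.13 CPM ± 0.701 (SD, n = 4 per group), in the death-associated kinase DAPK1, from 5.99 CPM ± 0.427 to 118 CPM ± 4.01 (SD, n = 4 per group), and in the death receptor TNFRSF25 (log2 fold change 1.18). Among genes of the list averaging 50 counts or more, the largest falls were in the BAX partner MOAP1 (-0.83), the nuclease DFFB (-0.71) and the deubiquitinase CYLD (-0.63, or -0.41 without the neighbours' shift). Some genes with fewer counts fell further, and these were singled out after their values were seen. CASP14, a caspase of the epidermis, had 68, 71, 70 and 70 counts in controls 1 to 4, against 6, 3, 1 and 3 in knockdowns 1 to 4 (log2 fold change -4.39), and BIRC3 (cIAP2) fell from 2.83 CPM ± 0.704 to 1.19 CPM ± 0.293 (SD, n = 4 per group; -1.23). TNFSF10, the gene of TRAIL itself, had 22, 18, 22 and 18 counts in controls 1 to 4, against 0, 2, 0 and 0 in knockdowns 1 to 4, at least 5.96-fold lower. TNFRSF1B reached the filter's minimum of 0.442 CPM in knockdown libraries only, and CASP14 and TNFSF10 in control libraries only. These genes could be tested only because they differed, and they are among the 9 lower and 12 higher.

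BAX, BBC3, PMAIP1, FAS and TNFRSF10B are known targets of p53, so other p53 targets were set beside them. Of 22 such genes, 21 were tested, 7 were lower and 9 higher, and the median log2 fold change was 0.02. The lower and higher genes were 33.3% and 42.9% of those tested, beside 37.7% and 39.4% of all tested genes. CDKN1A (p21), the classical target, fell from 8.35 CPM ± 1.21 to 1.76 CPM ± 0.253 (SD, n = 4 per group; log2 fold change -2.24 with an SE of 0.148; edgeR adjusted p = 7.5e-14). MDM2, the p53 ubiquitin ligase, was at 84.8 CPM ± 2.61 and 86.0 CPM ± 3.39 (SD, n = 4 per group; edgeR adjusted p = 0.64). TP53I3 and FDXR also fell (log2 fold changes of -1.93 and -0.81), while PLK2 (2.74), TIGAR (1.33) and TP53I13 (1.31) rose.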

How the data were processed

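Expression was measured in 8 SKBR3 libraries, 4 control and 4 FOXA1 knockdown, sequenced as paired-end reads per the labels' protocols. The authors deposited a table of whole read counts, its rows named by Ensembl gene and symbol. The submitters' processing notes list FastQC, Salmon 1.9, DESeq2 and the build hg38 without their roles, and Salmon estimates counts per transcript, so the whole numbers may be rounded estimates. Neither the gene annotation nor the strand setting is given in the sources used here.

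The 45 members and the other gene lists were chosen with earlier results of these data known, so their counts are descriptions. Genes were kept by filterByExpr of edgeR 4.0.16 (minimum count 10, total 15), which left 16430 of 30434 genes, scaled by TMM and tested with the robust quasi-likelihood fit in R 4.3.3, and p-values were adjusted across the 16430 genes (Benjamini-Hochberg, threshold 0.05). The fit adds a prior count of 0.125 to its log2 fold changes, and SEs come from log2 CPM with 0.5 added to each count. Per-length levels divide CPM by the exon length in GENCODE 29, which matched 96.5% of the rows, so they depend on that annotation and not on the transcripts used. Members called with at least a 2-fold change and the member of each role with the highest per-length level over both groups are given by library. From the other lists, the 3 largest rises and falls among called genes averaging 50 counts or more are named, with BIRC5, MDM2 and CDKN1A. The neighbours' shift is taken over the 50 tested genes closest on the chromosome, as their median log2 change. Floors of 3 counts cover counting error only. The fit was also run on simulated counts in which 195 of 16050 genes were changed, and it recovered 93.3% of them with 18 false calls. Far fewer genes were changed there than were called in these libraries, so the run does not check the scaling in that setting. Alternatives covered scaling, filters, DESeq2 1.42.0, voom of limma 3.58.1, a replicate block, an offset for chromosomal neighbours, and leaving out each library. Promoter windows come from RefSeq (GRCh38.p14), and 35 members matched. Python 3.11.15 and matplotlib 3.10.9 drew the figures.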

Additional observations from a re-analysis of the deposited data

Results flagged for a closer look

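In groups of 4 libraries, a library was picked out where its gap to the nearest other, divided by the range of the group, exceeded Dixon's 95% critical value. This picked out 6 of 112 groups of values, where chance gives about 1 in 20, or 5.6. BID was high in control replicate 2 (33.0 CPM against 31.7 to 31.9, ratio 0.886) and in knockdown replicate 4 (12.6 CPM against 10.5 to 10.7, ratio 0.938). HTRA2 was high in control replicate 3 (32.6 CPM against 29.4 to 29.8, ratio 0.868). XIAP was high in knockdown replicate 2 (67.1 CPM against 62.4 to 62.7, ratio 0.935). RIPK3 had 2 counts in knockdown replicate 1 and 0 in the others (ratio 1.0). With the others at 0 any count gives that ratio, and 2 counts lie under the floor of 3, so nothing is read from it. DAPK1 was low in control replicate 2 (5.36 CPM against 6.14 to 6.27, ratio 0.855).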

How the results depend on the processing

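The counts of members called stayed within 1.5 times of the values given under all 20 alternatives. Lower calls ran from 17 to 23, higher calls from 12 to 16 and 2-fold changes from 11 to 16. Of all tested genes, 23.5% to 40.8% were called lower, 25.9% to 43.6% higher and 23.3% to 29.1% with a 2-fold change. An alternative that tested against a 2-fold change enters only the last of these. Upper-quartile scaling gave 17 lower and 15 higher members, beside 34.6% and 42.4% of all tested genes. Library size only gave 17 and 16 members, beside 33.4% and 43.6% of all tested genes. Over 55 single genes, 932 of 988 values under alternatives kept their direction and side of the threshold, and 14 genes had a value that did not, none of them a member changed 2-fold. The threshold here is that on the adjusted p, and BAD was short of 2-fold (-0.87) with the neighbours' offset. BCL2L11 was past 2-fold (-1.06) with that offset, and BAX with upper-quartile scaling (1.03) and library size only (1.06). With library size only the log2 fold change turned to 0.011 for MCL1, 0.071 for CYCS, 0.077 for XIAP and 0.014 for RIPK1. With upper-quartile scaling it turned to 0.047 for CYCS and 0.053 for XIAP, and with a mean of at least 50 counts to 0.002 for CYCS and 0.007 for XIAP. With the neighbours' offset it turned to 0.26 for CYCS, which was then called, 0.14 for ENDOG, -0.19 for TNFRSF1A, 0.047 for FADD and -0.13 for MDM2. Leaving out each library kept FOXA1 between -5.64 and -5.55 and gave -0.003 to 0.04 for BCL2L13, -0.05 to 0.011 for CYCS, -0.04 to 0.014 for XIAP and -0.003 to 0.04 for MDM2. The cause of these turns was not tested beyond the scaling, offset, filter or library named. The replicate block gave 21 lower, 14 higher and 14 2-fold members, beside 37.1%, 38.7% and 28.4% of all tested genes. Of the members, the block ended only the call of MCL1 (adjusted p of 0.07 by edgeR). Deviations of same-numbered libraries correlated between -0.0307 and 0.0563, so the numbers showed no pairing. Depth limits BCL2A1, TNFRSF10D, FAS and CASP1, which were too low to test.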
